A study of Mus musculus with 2 samples.

Results

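Wild type cells that carried at least 2 transcripts of T, the gene of the transcription factor Brachyury, were rare: 205 of the 9227 wild type cells kept for analysis (2.22%, 95% exact binomial interval 1.93 to 2.54), out of 16610 kept cells in the series. They were chosen by their T count alone, as cells with 2 or more unique molecular identifiers (UMIs, tags that count captured RNA molecules) of T, and were compared with the 8273 wild type cells in which no T UMI was found. Because T selected the cells, their T level is a description and not a result. The remaining 749 wild type cells had 1 T UMI and are used below only to show the cells just outside the limit.

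Brachyury is a T-box transcription factor of the primitive streak, the strip of the early embryo in which epiblast cells turn into mesoderm and endoderm. Wnt, Nodal and FGF signals induce the streak, and Wnt signalling acts on T through TCF/LEF factors. Streak cells are known to express T with Eomes, Mixl1, Fgf8 and Sp5, and cells that leave the streak as nascent mesoderm switch on Mesp1.

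The T-positive cells belong to a droplet single-cell library (10x Genomics) of wild type AB2.2 cells, an established mouse embryonic stem cell line, kept for 4 days under differentiation toward mesendoderm, from which mesoderm and endoderm both derive. The other library of the series holds AB2.2 cells with a knockout of PHD2, a prolyl hydroxylase that senses oxygen and is the product of Egln1, after the same 4 days. The sources used here give neither the altered part of Egln1 nor the number of clones nor the agents used for differentiation. Cells of both libraries were separated with trypsin. Each genotype is 1 library, so no test between groups was possible. All cells of a group share 1 library and are not replicates, and every interval below covers counting error only.

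The T-positive cells were deeper than the cells they were compared with. Their median was 28494 UMIs and 4347 genes, against 20465 UMIs and 3574 genes in T = 0 cells, while the median mitochondrial share was 1.14% against 1.07%. Levels are therefore given as UMIs summed over the cells of a group and scaled to the group's total (counts per 1000000 UMIs, CPM), and shares of cells with a UMI after every cell was thinned to 14000 UMIs. A gene is called higher or lower where the log2 ratio of T-positive over T = 0 cells, with a pseudocount of 1 CPM, passed 1.5-fold at 10 CPM or more in the higher group. The wild type and knockout matrices shared 22 barcodes, none of which was a T-positive wild type cell.

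The 205 cells held 537 of the 1286 T UMIs of the kept wild type cells (41.8%). Of them 140 had 2 T UMIs, 41 had 3, 14 had 4, 4 had 5 and 3 had 6. The remaining 3 cells had 10, 13 and 17 T UMIs. Most members thus stood just inside the limit. T stood at 73.9 CPM over the T-positive cells, a value that the selection sets.

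**Figure D1:**
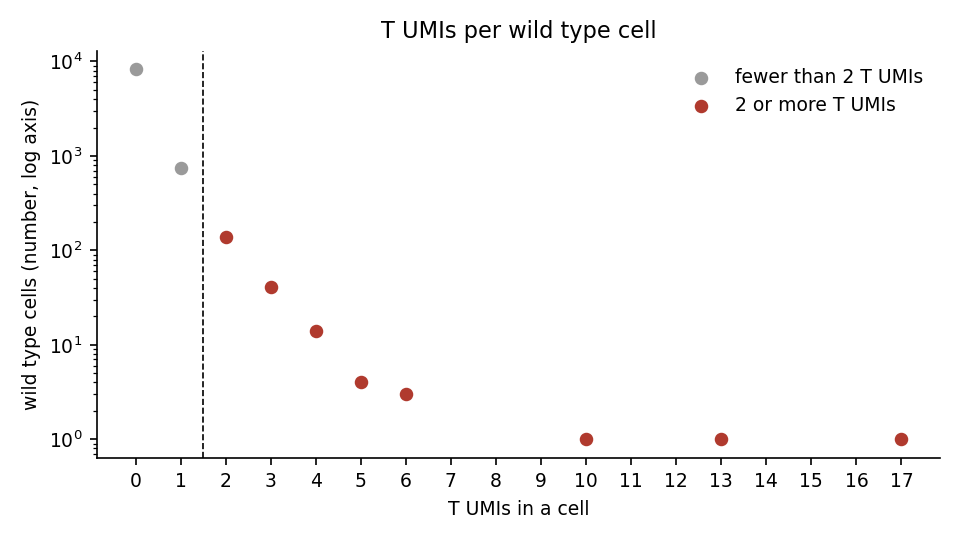
Number of wild type cells (log axis) at each T count per cell. Grey points are cells with 0 or 1 T UMIs, red points are the 205 T-positive cells to the right of the dashed limit, of which 140 have 2 T UMIs and the highest has 17.

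Membership moved with depth. When the wild type cells were ranked by depth and cut into 5 equal bins, the share with 2 or more T UMIs was, from the shallowest bin to the deepest, 0.434%, 1.14%, 1.90%, 2.39% and 5.25%. The level of T over all cells of each bin was 4.12, 4.77, 6.10, 5.49 and 6.47 CPM, so the share spread far more widely than the level. After thinning to 14000 UMIs, 71 of 8441 cells (0.841%, 0.657 to 1.06) still had 2 or more T UMIs, and 152 of the 204 T-positive cells deep enough to thin kept at least 1. In wild type cells with the highest share of naive pluripotency UMIs (the top 5%, 462 cells, median 21287.5 UMIs), 2 cells had 2 or more T UMIs (0.433%, 0.0525 to 1.55) and T stood at 2.30 CPM.

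The upstream sequences of T, the gene that chose the cells, and of Sp5, whose ratio was the highest among genes of 10 CPM or more apart from H19, which rested on 1 cell, are shown because both genes are known Wnt targets. Each is the 250 bases before the gene's start, from RefSeq's promoter table for GRCm38.p6, on the plus strand, at chr17:8434173-8434422 for T and chr2:70474673-70474922 for Sp5. Capitals mark the TCF/LEF core, CTTTGA, and the T-box core, AGGTGT, each searched on both strands, so that a match on the other strand shows as the reverse complement. No marked stretches overlap, and the match in the T sequence to the TCF/LEF core lies on the other strand.
T: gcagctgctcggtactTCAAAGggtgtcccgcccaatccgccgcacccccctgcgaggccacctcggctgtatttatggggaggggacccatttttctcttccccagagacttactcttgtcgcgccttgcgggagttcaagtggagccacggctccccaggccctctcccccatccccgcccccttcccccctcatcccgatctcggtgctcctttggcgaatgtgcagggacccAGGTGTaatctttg
Sp5: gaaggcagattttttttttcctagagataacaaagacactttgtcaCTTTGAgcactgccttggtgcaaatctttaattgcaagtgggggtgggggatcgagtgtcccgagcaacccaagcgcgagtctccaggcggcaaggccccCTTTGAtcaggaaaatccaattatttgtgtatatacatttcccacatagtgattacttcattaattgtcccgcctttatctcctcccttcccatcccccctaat
The T sequence held 1 match to the TCF/LEF core, 234 to 229 bases before the start, and 1 to the T-box core, 14 to 9 bases before it. The Sp5 sequence held 2 matches to the TCF/LEF core, 204 to 199 and 104 to 99 bases before the start, and 0 to the T-box core. The Eomes window of the same length held neither. Of all 32851 promoters, 13.8% held the TCF/LEF core and 11.8% the T-box core. RefSeq's table held 27 of the 41 genes that were higher in T-positive cells, and 4 of these 27 (14.8%) had the TCF/LEF core in at least 1 promoter, against 15.8% of all 27025 gene symbols. The T-box core was in 9 of the 27 (33.3%), against 13.6% of all symbols. A match of letters is no evidence of binding, and no test was made of these shares.

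The other streak genes were higher in T-positive cells. Sp5, a zinc finger factor that Wnt signalling induces (ENSMUSG00000075304, mm10 chr2:70474923-70477729), stood at 21.9 CPM in T-positive cells (18.6 to 25.6) and 7.81 CPM in T = 0 cells (7.42 to 8.21), a ratio of 2.80 (2.36 to 3.30). Fgf8, a growth factor needed for cells to leave the streak (ENSMUSG00000025219, chr19:45736798-45742915), stood at 76.6 CPM (70.4 to 83.3) in T-positive cells and 35.0 CPM (34.2 to 35.9) in T = 0 cells, a ratio of 2.19 (2.003 to 2.39). Eomes, a T-box factor of mesendoderm (ENSMUSG00000032446, chr9:118478212-118486132), stood at 23.5 CPM (20.1 to 27.3) in T-positive cells and 10.8 CPM (10.4 to 11.3) in T = 0 cells, a ratio of 2.17 (1.85 to 2.54). For each of these 3 genes the interval of the ratio stayed above 1.5. Sp5 was below 10 CPM in T = 0 cells and so was measured only through the T-positive cells.

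These 3 genes were not evenly spread over the cells. Fgf8 ran between 0 and 18 UMIs per T-positive cell with a median of 2, and was found in 144 of the 205 cells. Eomes reached 6 UMIs in a cell and was found in 88 cells, and Sp5 reached 10 UMIs and was found in 74, so the median cell had 0 UMIs of either. No single cell carried any of the 3 ratios. Without the cell that held most of the gene's UMIs, the log2 ratios were 1.29 for Sp5, 1.07 for Fgf8 and 1.01 for Eomes.

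Mixl1, a homeobox factor of the streak (ENSMUSG00000026497, chr1:180693043-180697034), was scarce. It stood at 3.30 CPM in T-positive cells (2.12 to 4.91; 24 UMIs in 18 cells) and 0.780 CPM in T = 0 cells (0.661 to 0.914; 152 UMIs), a ratio of 4.24 (2.63 to 6.54). Its level was below the 10 CPM that a call required. After thinning, Mixl1 was found in 4 of 204 T-positive cells (1.96%, 0.537 to 4.94) and in 1.12% of T = 0 cells (0.891 to 1.38), and these intervals overlap.

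At equal depth the shares of the other genes still stood apart. Fgf8 was found in 52.9% of thinned T-positive cells (45.8 to 59.9), 28.5% of T = 0 cells (27.5 to 29.5) and 18.9% of naive-high cells (15.2 to 22.9). Without thinning the shares were 70.2% in T-positive and 36.0% in T = 0 cells. Eomes was found in 24.5% of thinned T-positive cells (18.8 to 31.0), 12.6% of T = 0 cells (11.9 to 13.4) and 6.92% of naive-high cells, and Sp5 in 20.1% (14.8 to 26.3), 8.60% (7.98 to 9.26) and 6.68% of the same groups. Naive-high cells, a state that should lack streak genes, were thus below T-positive cells for all 3 genes.

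After thinning, most T-positive cells showed at most 1 of the other 4 streak genes, though 2 or 3 were found together more often than in T = 0 cells. Of the 204 thinned cells, 61 (29.9%) had none of Mixl1, Eomes, Fgf8 and Sp5, 92 (45.1%) had 1 of them, 42 (20.6%) had 2 and 9 (4.41%) had 3. At this depth 0 had all 4, for which the limit is a share of 1.47% (3 cells in the total). Of thinned T = 0 cells 58.7% had none, 32.7% had 1, 7.62% had 2, 0.917% had 3 and 0.0266% had all 4. Before thinning some T-positive cells did hold all 4 genes, among them the cell with 17 T UMIs. Without thinning, Fgf8 was found in 70.2% of T-positive cells, Eomes in 42.9%, Sp5 in 36.1% and Mixl1 in 8.78%. The unthinned shares of T = 0 cells were 36.0%, 18.8%, 12.2% and 1.79% in the same order. The summed level of these 4 genes per cell had a median of 102 CPM in T-positive cells, with a range of 0 to 670 CPM. In T = 0 cells the median was 20.6 CPM and the range 0 to 2003 CPM, so single cells of the groups overlapped over the whole range of the T-positive cells.

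Streak genes stood at different levels already in cells with 1 T UMI. Across cells of 0, 1, 2, 3 to 4 and 5 or more T UMIs, Sp5 stood at 7.81, 12.9, 18.7, 25.7 and 37.2 CPM. Fgf8 stood at 35.0, 60.7, 78.1, 76.7 and 60.5 CPM in the same order, and Eomes at 10.8, 17.97, 23.2, 22.9 and 30.2 CPM. Sp5 was higher in each class than in the one before, whereas Fgf8 was no higher in the last than in the class of 2. A rise over all classes is not particular to Sp5. Of 4419 genes of 20 CPM or more in the last class, 509 rose in this way. Just inside the limit, cells with 2 T UMIs had 23.2 CPM of Eomes (19.05 to 27.99), and just outside it cells with 1 T UMI had 17.97 CPM (16.3 to 19.8). The class of 5 or more holds 10 cells and 429758 UMIs, and its intervals are wide, as for Sp5 (21.3 to 60.5) and Fgf8 (39.5 to 88.6).

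**Figure D2:**
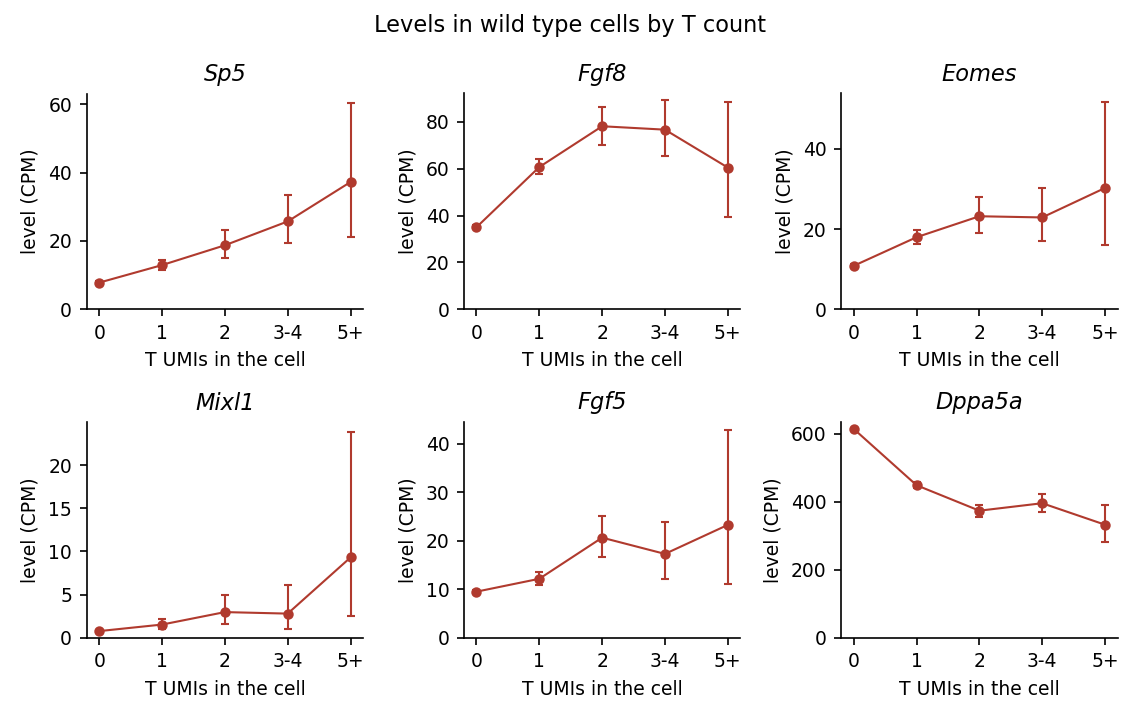
Summed level (CPM) of 6 genes in wild type cells with 0, 1, 2, 3 to 4 and 5 or more T UMIs, with 95% Poisson intervals that cover counting error only. Sp5 runs from 7.81 to 37.2 CPM, Fgf8 levels off from 2 T UMIs on, and Dppa5a is at 614 CPM in cells without T and 333 CPM in those with 5 or more.

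Genes outside the streak list were taken from those of 20 CPM or more in the last class, a rule that favours genes high in it, so their order over the classes is a description. Dsp, which encodes the desmosome protein desmoplakin, stood at 12.1, 15.3, 19.2, 27.1 and 62.8 CPM, but 16 of its 27 UMIs in the last class came from 1 cell. Col5a1, a collagen gene, stood at 2.27, 3.24, 4.68, 7.01 and 25.6 CPM, and the last value rests on 11 UMIs. Ifitm1, a membrane protein gene of early mesoderm and germ cell precursors, stood at 46.6, 59.6, 75.3, 86.9 and 139.6 CPM.

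The 10 cells with 5 or more T UMIs were themselves unlike one another. The cell with 17 T UMIs also had 10 UMIs of Sp5, 5 of Eomes, 2 of Fgf8 and 2 of Mixl1. The cell with 13 T UMIs had 5 of Eomes and 0 of Sp5, Fgf8 and Mixl1. The cell with 10 T UMIs had 7 of Fgf8, 2 of Sp5 and 1 of Mixl1 and 0 of Eomes. Mesp1 was at 0 in all 10, and each had between 3 and 15 UMIs of Pou5f1, the pluripotency factor Oct4.

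Over all genes, 41 of 6186 (0.663%) were higher and 6 (0.097%) lower in T-positive cells by at least 1.5-fold, T left out. For each of these 47 genes the interval of the ratio excluded 1. The fold and level that chose the genes from these same counts made this likely in advance, so it adds no support. The median log2 ratio of all 6186 genes was 0.06. Of the 41 higher genes, 17 were below 10 CPM in T = 0 cells and so entered through the group in which they were higher, and 24 reached 10 CPM in both groups. Of the 41 higher genes, 31 stayed past the fold without the cell that held most of their UMIs and 10 did not.

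**Figure D3:**
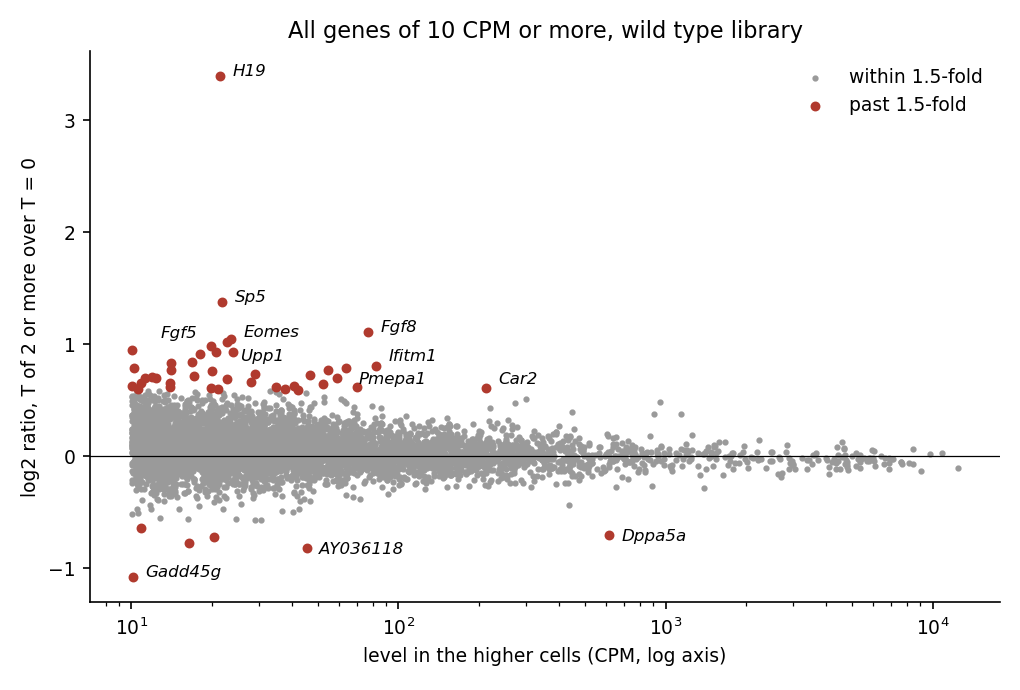
Log2 ratio of T-positive over T = 0 wild type cells (pseudocount 1 CPM) against the level in the higher group (CPM, log axis) for 6186 genes, with the 41 higher and 6 lower genes in red. Most genes lie near 0, Sp5, Fgf8 and Eomes stand out above and Dppa5a below, and the single highest point, H19, rests on 1 cell.

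Of the primitive streak genes, 4 of 8 measured members (Sp5, Fgf8, Eomes and Fgf17) were higher, 0 lower and 4 between, with a median log2 ratio of 0.74. Sp5 and Fgf17 were below 10 CPM in T = 0 cells and counted as measured only through the T-positive cells. Over the other 6 members 2 were higher and the median was 0.49. Fgf17, a growth factor close to Fgf8, stood at 18.03 CPM in T-positive and 9.08 CPM in T = 0 cells, a ratio of 1.99 (1.65 to 2.37). Wnt3, the ligand that starts the streak, stood at 17.6 CPM in T-positive and 11.7 CPM in T = 0 cells, just under the call with its pseudocount. The remaining measured members stood at smaller ratios, from Tdgf1, the Nodal co-receptor, at 221 CPM in T-positive and 164 CPM in T = 0 cells, and Fst, the follistatin gene, at 41.0 and 32.5 CPM in the same order, to Nodal itself at 63.7 and 61.0 CPM. Evx1 and Gsc, homeobox factors of the posterior and anterior streak, were below 10 CPM. Evx1 stood at 5.64 CPM in T-positive and 2.68 CPM in T = 0 cells, and Gsc at 1.51 CPM (11 UMIs in 8 cells) and 0.323 CPM.

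Mesp1, Cyp26a1, Tbx6 and Msgn1, genes of the nascent mesoderm, were almost absent from the T-positive cells. Mesp1 (ENSMUSG00000030544, chr7:79792241-79793788) had 16 UMIs in all, 12 in 1 cell and 4 in another, each of them a cell with 2 T UMIs, and 0 in the other 203. The cell with 12 Mesp1 UMIs also held 4 UMIs of Cyp26a1, a retinoic acid-degrading enzyme, 30 of the uridine phosphorylase gene Upp1, 8 of Fgf8, 5 of Eomes and 3 of Gsc, and 0 of Sox2. It was the only T-positive cell with Cyp26a1. The cell with 4 Mesp1 UMIs held 13 of Upp1, 10 of Fgf8, 2 of Eomes and 2 of Mixl1, and was among those with the highest doublet scores. Tbx6, a factor of paraxial mesoderm, had 3 UMIs and Msgn1 had 0. These 4 genes were scarce in T = 0 cells as well. Mesp1 stood there at 0.354 CPM, Cyp26a1 at 0.123 CPM, Tbx6 at 0.154 CPM and Msgn1 at 0 CPM. Lefty2, a Nodal antagonist, stood at 14.04 CPM in T-positive and 7.79 CPM in T = 0 cells and was 1 of 2 measured members of this list, counted as measured only through the T-positive cells. The other was Phlda2, an imprinted gene, at 147 CPM in T-positive and 164 CPM in T = 0 cells. Naive-high cells carried Lefty2 about as often as T-positive cells, in 14.8% (11.5 to 18.6) against 14.2% (9.73 to 19.8) of thinned cells. The share of thinned T = 0 cells with Lefty2 was 8.37%. The summed level of the list was 174 CPM in T-positive and 182 CPM in T = 0 cells, most of it Phlda2.

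Several defining markers of other lineages were at or near 0. The endoderm factors Sox17 and Foxa2 had 1 UMI each over the 205 cells, and Kdr, Noto, Shh, Afp, Ttr, Apoa1, Elf5, Col3a1 and Postn had 0. A count of 0 allows up to 0.413 CPM in T-positive cells (3 counts over the group). The genes at 0 were rare in thinned T = 0 cells as well, with Apoa1 the most frequent at 1.04%. Col1a1, listed with Col3a1 and Postn as a fibroblast marker, had 4 UMIs in 4 T-positive cells. It was found in 1.47% of thinned T-positive cells (0.304 to 4.24) and 0.319% of thinned T = 0 cells (0.204 to 0.474). Foxj1, listed with Noto and Shh as a node marker, was found in 0.490% and 0.704% of the same groups, and in 3.41% and 1.21% without thinning. Other markers of these or further lineages were present. In thinned T-positive and T = 0 cells, the trophoblast genes Ascl2 and Krt7 were found in 8.82% and 7.87%, and in 2.94% and 2.18%. Hhex of the endoderm was found in 3.43% and 3.28%, and Dnd1 of germ cells in 10.8% and 9.40%. Prdm1 and Nanos3, also of germ cells, were found in 2.94% and 1.09%, and in 0% and 1.13%. The caudal genes Nkx1-2 and Cdx2 were found in 2.94% and 0.957%, and in 2.45% and 1.74%. Pax6 and Sox1 of neuroectoderm were found in 1.47% and 0.598%, and in 0.490% and 0.253%. For each gene from Prdm1 to Sox1 the intervals of the 2 groups overlapped. Zscan4d and Zscan4f of the 2-cell-like state were also at 0, and Zscan4c had 2 UMIs in 2 cells. After thinning, Zscan4c was found in 0 of 204 T-positive cells (0 to 1.79%) and in 0.478% of T = 0 cells. The summed level of the 2-cell-like list was 0.413 CPM in T-positive and 7.66 CPM in T = 0 cells. Few T = 0 cells carried that list: its upper quartile among them was 0 CPM and its highest value 7488 CPM. A lower share of this state in T-positive cells is therefore not shown. Other markers were well above 0.413 CPM. The hormone gene Trh of the endoderm list stood at 54.9 CPM in T-positive and 71.6 CPM in T = 0 cells, and Apoe, the apolipoprotein E gene of the visceral endoderm list, at 541 and 654 CPM in the same order. Of the 11 genes of the lateral and extraembryonic mesoderm list only 2 were measured, and both were higher. Ahnak stood at 42.0 CPM in T-positive and 27.6 CPM in T = 0 cells. Its log2 ratio was 0.59, and 0.52, under the fold, without the cell that held most of its UMIs. Msx1 was measured only through the T-positive cells. All other genes of the list were below 10 CPM. Among them, Hand1 and Gata6 had 1 UMI each in T-positive cells, and Gata4 and Foxf1 had 0. In T = 0 cells Hand1 stood at 0.390, Gata6 at 0.180, Gata4 at 0.164 and Foxf1 at 0.0513 CPM. Etv2, a factor of blood and endothelial precursors, stood at 20.8 CPM in T-positive and 10.4 CPM in T = 0 cells, but unevenly: 3 cells held 25, 15 and 14 UMIs, with 1, 0 and 0 UMIs of Lmo2. Its log2 ratio was 0.93, and 0.68 without the first of these.

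Of the FGF pathway 3 of 10 measured genes (Fgf8, Fgf5 and Fgf17) were higher and 0 lower. Their list had a median log2 ratio of 0.44. Fgf5 and Fgf17 were measured only through the T-positive cells, and the median of the other 8 was 0.41. Fgf5, a growth factor of the formative epiblast, stood at 19.8 CPM in T-positive cells and 9.51 CPM in T = 0 cells, a ratio of 2.08 (1.75 to 2.47), and was found in 24.5% (18.8 to 31.0) and 11.4% (10.7 to 12.1) of thinned cells of the same groups. Dusp6, a phosphatase induced by ERK signalling, stood at 32.9 CPM in T-positive and 21.7 CPM in T = 0 cells, and Etv4, another ERK target, at 22.3 CPM and 20.4 CPM. Fgf4, another ligand, stood at 7.16 CPM in T-positive and 9.95 CPM in T = 0 cells, below the measured level.

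Of the Wnt list 1 of 6 measured genes (Sp5) was higher and 0 lower, with a median of 0.51. Sp5 and Sp8 were measured only through the T-positive cells, and the median of the other 4 was also 0.51. The Wnt effectors Lef1 and Tcf7 stood at 18.9 and 21.7 CPM in T-positive cells, against 13.0 and 14.97 CPM in T = 0 cells. Axin2, a feedback inhibitor, stood at 9.36 CPM in T-positive cells and 7.12 CPM in T = 0 cells, below the level a call required. Of the Nodal pathway 1 of 8 measured genes (Lefty2) was higher and 0 lower (median 0.10, and 0.07 without Lefty2). Lefty1, the paralog of Lefty2, stood at 30.3 CPM in T-positive and 42.4 CPM in T = 0 cells. Of the BMP list 1 of 7 (Msx1) was higher and 0 lower (median 0.07, and 0.00 without Msx1), with Msx1 at 16.9 CPM in T-positive and 9.02 CPM in T = 0 cells, and the BMP target Id1 at 429 and 450 CPM in the same order.

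Of 12 measured general pluripotency genes 0 were higher and 1 (Dppa2) lower, with a median of 0.03. Pou5f1 stood at 145 CPM in T-positive cells (137 to 154) and 143 CPM in T = 0 cells (141 to 144), and Sox2 at 37.8 CPM (33.5 to 42.6) and 39.2 CPM (38.3 to 40.1) in the same order. Utf1, a chromatin factor of pluripotent cells, stood at 321 CPM in T-positive and 434 CPM in T = 0 cells, 1.35-fold lower. Of 10 measured formative epiblast genes 1 (Fgf5) was higher and 0 lower (median 0.14), with Pou3f1 at 99.3 CPM in T-positive and 89.9 CPM in T = 0 cells and Otx2 at 21.7 and 18.98 CPM.

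Dppa5a, an RNA-binding protein gene of naive cells and the most abundant of the 6 lower genes, stood at 378 CPM in T-positive cells (364 to 392) and 614 CPM in T = 0 cells (611 to 618), 1.63-fold lower (1.57 to 1.69). It was the only 1 of 5 measured naive genes past the fold, and the list median was -0.19. Below the measured level, Klf2 stood at 4.27 CPM in T-positive and 9.50 CPM in T = 0 cells and Dppa3 at 0.963 and 5.94 CPM, and the summed level of the list was 514 and 761 CPM in the same order. Zfp42 stood at 15.96 CPM in T-positive and 21.2 CPM in T = 0 cells. Nanog, which naive and early streak cells share, stood at 43.9 and 33.9 CPM in the same order. Naive-high cells made up 0.976% of T-positive cells and 5.32% of T = 0 cells, and their part in the lower Dppa5a level was not tested. The other lower genes were Dppa2, Triml2, AY036118, Gadd45g and Tmc4, the last 2 of which were named after their values were seen.

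Of 11 measured epithelial genes 1 (Dsp) was higher and 0 lower (median 0.11), with the E-cadherin gene Cdh1 at 95.4 CPM in T-positive and 85.7 CPM in T = 0 cells and Epcam at 290 CPM in both. Of 3 measured mesenchymal genes none was past the fold (median 0.25), with the fibronectin gene Fn1 at 28.9 CPM in T-positive and 23.2 CPM in T = 0 cells, Sparc, a matrix protein gene, at 246 and 206 CPM, and vimentin (Vim) at 84.5 CPM in T-positive and 86.0 CPM in T = 0 cells. The N-cadherin gene Cdh2, at 1.93 and 1.91 CPM in the same order, and Snai1, the repressor of Cdh1, at 0.550 and 0.615 CPM, were below the measured level. None of 9 measured HIF targets (median 0.08), 12 glycolysis genes (-0.03), 20 S phase genes (-0.08) or 20 G2 and M phase genes (0.16) was past the fold. Over all 6186 genes only 0.663% were higher and 0.097% lower. A count of 0 in these lists or those above is near those shares and is no result about their genes.

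Further genes among the 15 highest ratios included Upp1, Dsp, BC023829, Ifitm1, Pmepa1, Peg3, St14, Pdgfa and Ltb. Upp1 stood at 22.8 CPM in T-positive cells and 10.8 CPM in T = 0 cells, and its log2 ratio of 1.02 was 0.75 without the Mesp1-rich cell, which held 30 of its 166 UMIs. Ifitm1 stood at 82.6 CPM in T-positive and 46.6 CPM in T = 0 cells, a ratio of 1.77 (1.63 to 1.92), but naive-high cells carried it more often still, in 69.7% of thinned cells against 50% of thinned T-positive cells. Pmepa1, a feedback inhibitor of TGF-beta signalling, stood at 63.8 and 36.5 CPM, and Pdgfa, a ligand of the platelet-derived growth factor family, at 46.5 and 27.7 CPM in T-positive and T = 0 cells. Peg3, an imprinted gene, stood at 54.6 and 31.7 CPM in the same order. H19, an imprinted non-coding RNA, had the highest ratio of all, at 21.5 CPM in T-positive and 1.13 CPM in T = 0 cells. However, 148 of its 156 UMIs came from 1 cell with 3 T UMIs, and without that cell its log2 ratio was -0.02.

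Of a list chosen in an earlier analysis of these same libraries as higher in the knockout (Mesp1, Mixl1, Upp1, Ifitm1, Sp5, Fst, Peg3 and Fgf8), 5 of 6 measured members were higher in T-positive wild type cells and 0 lower, with a median of 0.91 (0.81 without Sp5, which was measured only through the T-positive cells). Of the 10 genes chosen as lower in the knockout, among them Pou3f1 and Utf1, 0 were higher and 0 lower (median -0.11). Both lists were picked on these samples and are not independent evidence of a direction.

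T-positive cells were next set beside knockout cells chosen by the same rule. Egln1, the targeted gene, stood at 19.1 CPM in T-positive wild type cells and 14.4 CPM in T-positive knockout cells. Transcript from outside an altered part would still be counted, so this level does not check the labels. In the knockout library 5565 of 7383 kept cells (75.4%, 74.4 to 76.4) had 2 or more T UMIs, with up to 95 in a cell, and T stood at 404 CPM over them. Because the knockout cells reached far higher T counts, cells of 2 to 4 T UMIs were compared, 195 wild type and 1695 knockout cells. Even then T stood at 67.1 CPM in these wild type cells and at 130 CPM in the knockout cells, against medians of 28494 and 20381 UMIs per cell, so the T levels differed within this range of counts.

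At this like T count the wild type cells held far less of the later streak and mesoderm genes. Mesp1 stood at 2.34 CPM in the wild type cells and at 282 CPM in the knockout cells, Lhx1, a factor of the anterior streak, at 0.292 and 44.2 CPM, and Cyp26a1 at 0.585 and 39.3 CPM in the same order. Mixl1 stood at 2.92 CPM in the wild type cells and at 69.4 CPM in the knockout cells, and Gsc at 1.61 and 22.9 CPM in the same order. Genes already present in wild type cells differed less: Fgf8 stood at 77.7 CPM in the wild type cells and at 131 CPM in the knockout cells, Eomes at 23.1 and 56.4 CPM, Sp5 at 20.9 and 76.3 CPM, and Wnt3 at 17.5 and 34.5 CPM. Fgf5 stood at 19.6 CPM in the wild type cells and at 18.6 CPM in the knockout cells, and Nodal at 65.5 and 62.5 CPM.

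Pou3f1, Utf1, Sox2 and Pou5f1 were higher in the wild type cells, and Dppa5a was lower. Among cells of 2 to 4 T UMIs, Pou3f1 stood at 94.6 CPM in the wild type and at 24.1 CPM in the knockout, Utf1 at 322 and 113 CPM, Sox2 at 38.2 and 26.6 CPM and Pou5f1 at 144 and 108 CPM in the same order, while Dppa5a stood at 381 and 627 CPM. Vim and Cdh2 stood at 82.6 and 1.75 CPM in these wild type cells, against 347 and 27.2 CPM in the knockout cells. For every 100 T UMIs of these cells, a count that their selection by T sets in part, Mesp1 had 3.49 UMIs in the wild type and 217 in the knockout. Fgf8 had 116 UMIs in the wild type and 100.3 in the knockout, Eomes 34.4 and 43.2, and Sp5 31.2 and 58.5 in the same order. Mesp1 was also at 159 CPM in knockout cells with no T UMI, above the 2.20 CPM of the T-positive wild type cells. How far genotype, clone and culture each account for these values cannot be told apart with 1 library of each.

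**Figure D4:**
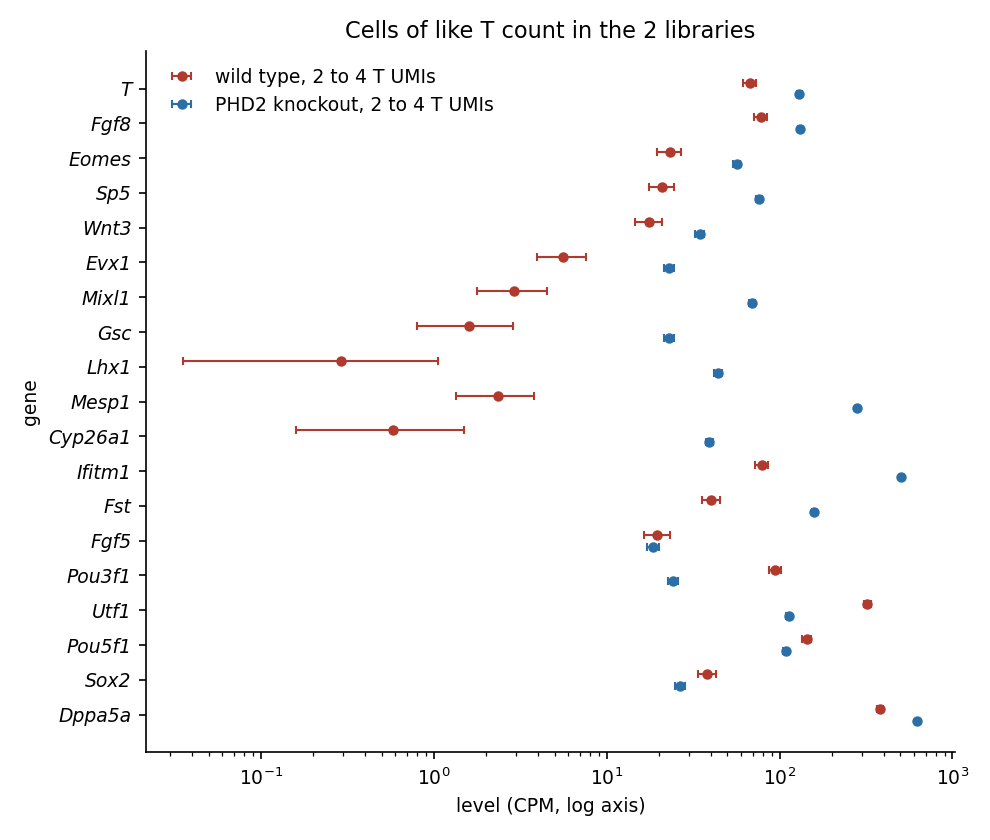
Summed level (CPM, log axis) of 19 genes in wild type (upper, red) and knockout (lower, blue) cells of 2 to 4 T UMIs, with 95% Poisson intervals that cover counting error only. Of the genes plotted, Mesp1, Lhx1, Cyp26a1, Mixl1 and Gsc lie furthest apart, Fgf5 lies level, and Pou3f1, Utf1, Sox2 and Pou5f1 are higher in the wild type cells.

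Co-detection also differed, but here all T-positive cells were taken and their T counts were not matched. Before thinning, T stood at 73.9 CPM over the T-positive wild type cells and at 404 CPM over the T-positive knockout cells. The part of this T difference in the shares below was not tested. All 4 of Mixl1, Eomes, Fgf8 and Sp5 were found in 0 of 204 thinned T-positive wild type cells and in 11.2% of 5232 thinned T-positive knockout cells, and none of them in 29.9% of the wild type and 9.58% of the knockout cells. The 0 holds at the thinned depth only, as some T-positive wild type cells held all 4 before thinning.

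Within the knockout library the same rule gave 124 higher (1.86%) and 126 lower (1.89%) of 6650 genes in T-positive over T = 0 cells. Of the 41 genes higher in the wild type comparison, 11 were also higher in the knockout one (26.8% of the 41 and 8.87% of the 124), 23 lay between the limits, 5 were not measured and 2 were lower. Of the 6 lower genes 4 were also lower in the knockout comparison (66.7% of the 6 and 3.17% of the 126). Dppa5a was one of them, at 442 CPM in T-positive and 1276 CPM in T = 0 knockout cells. Fgf8 and Fgf5 were higher in each library, with Fgf8 at 203 CPM in T-positive and 56.4 CPM in T = 0 knockout cells and Fgf5 at 24.9 and 10.5 CPM. Eomes was past the fold in wild type cells and not in knockout cells, where it stood at 51.5 CPM in T-positive and 39.6 CPM in T = 0 cells. The difference between the libraries was not tested.

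The T-positive cells also differed from T = 0 cells in the share of their UMIs that came from chromosome 8. This share fell into 2 peaks among wild type cells, and a limit of 6% was set between them after the data were seen. Below the limit lay 1412 cells, of which 58 were T-positive (4.11%, 3.13 to 5.28), and above it 7815 cells, of which 147 were (1.88%, 1.59 to 2.21). Cells of low share made up 28.3% of T-positive and 14.4% of T = 0 cells, and their median depth was 21561.5 UMIs against 20604 UMIs for cells of high share. Within 0.2 percentage points of the limit lay 239 cells, 16 of them T-positive.

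The streak genes were higher within each of these classes. Among cells of low and high chromosome 8 share, the log2 ratio of T-positive over T = 0 cells was 1.14 and 1.33 for Sp5, 1.12 and 0.97 for Fgf8, 1.30 and 0.93 for Eomes, and -0.57 and -0.64 for Dppa5a. Mixl1 had log2 ratios of 2.08 in low and 0.78 in high cells. Triml2 and 3 further genes of the 15 lowest ratios lie on chromosome 8, and Triml2 had -0.24 in low and -0.68 in high cells against -0.72 over all. The part of the chromosome 8 share in these 4 genes was not tested further. The sources used here do not name the origin of the 2 peaks.

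**Figure D5:**
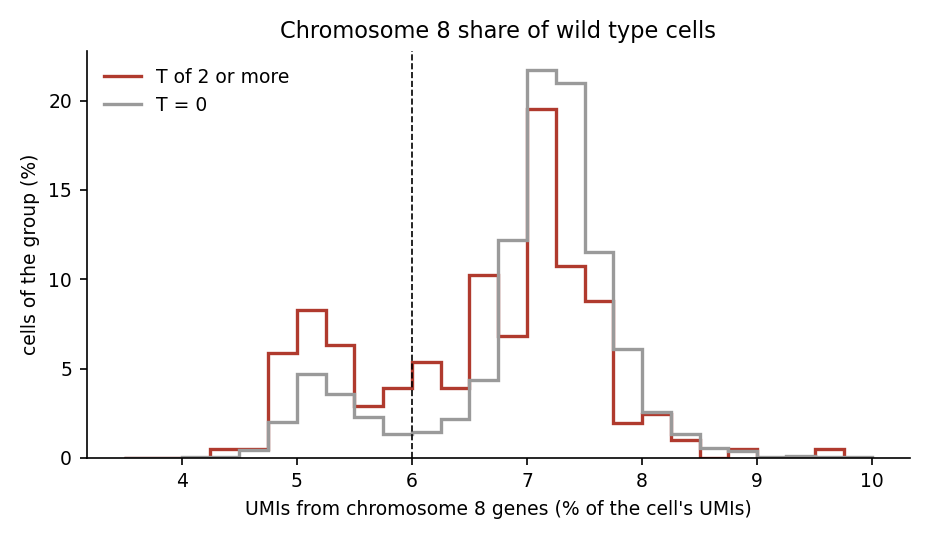
Share of a wild type cell's UMIs that came from chromosome 8 genes (%), as the percentage of T-positive (red) and T = 0 (grey) cells in each bin, with the 6% limit dashed. Both groups have 2 peaks, and 28.3% of T-positive against 14.4% of T = 0 cells lie below the limit.

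Doublets are droplets that hold more than 1 cell. Of the 712 wild type cells with the highest scores 13 were T-positive, 6.34% of T-positive cells against 7.48% of T = 0 cells, and none of the 65 cells with 3 or more T UMIs was among them. Without those cells the log2 ratios were 1.43 for Sp5, 1.18 for Fgf8 and 1.07 for Eomes.

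Set against its markers, the name Brachyury-positive holds by the T count that chose the cells. Of the 4 other streak markers, Fgf8 and Eomes were called higher and reached 10 CPM in both groups. Sp5 was also called higher, but was below 10 CPM in T = 0 cells and so was measured only through the T-positive cells. The fourth, Mixl1, had a ratio of 4.24 but was below the 10 CPM that a call required. Mixl1 was found in 18 of the 205 cells and Mesp1 in 2, so no further cell type name is given.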

How the data were processed

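For each library the deposited matrix gives raw UMI counts for every gene and barcode; per the file headers, Cell Ranger 4.0.0 wrote it. Named in the submitters' processing notes are mm10, Cell Ranger and Seurat. Groups came from the sample titles. Both matrices list 27998 genes, and GENCODE M21 gave mm10 chromosomes for 27645. There were 9651 wild type barcodes (226179474 UMIs) and 7713 knockout barcodes (173470962 UMIs). A barcode was kept if it had 1000 or more genes and a share of mt- genes of 10% or less. These limits left out 424 wild type barcodes, none with 2 or more T UMIs.

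The members and gene lists were chosen with earlier results of these data known. UMIs were summed per group, with exact Poisson (levels), conditional binomial (ratios) and Clopper-Pearson (shares) intervals at 95%. The code was tested on simulated data. A list member counted as measured if its higher group reached 10 CPM. Genes named are the 5 markers, up to 3 members from each end of each of 36 lists and the list's most abundant gene, the 15 highest and 15 lowest ratios at 20 CPM or more, and the 10 genes rising most over T classes; a gene that this rule takes is not reported here. Other markers, genes below the measured level, and the members of the plot of like T counts were named after their values were seen. Coordinates are those of the annotation, 1-based. Scrublet (scanpy 1.11.5) marked 0 cells at its automatic threshold, which was taken as not working, so doublets were kept and the cells of highest score left out as an alternative. Python 3.11.15, numpy 2.4.6, scipy 1.17.1 and pandas 2.3.3 were used. Promoters came from RefSeq's GRCm38.p6 table, which held T, Sp5 and Eomes of the 5 markers. Alternatives were thinning, weighting T = 0 cells to the members' depth, other limits on barcodes, T counts, pseudocounts and CPM minimums, and size factors.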

Additional observations from a re-analysis of the deposited data

Results flagged for a closer look

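The ratio of T-positive over T = 0 cells went opposite ways in the 2 libraries for 2 genes past the fold in each. Wnt4, a Wnt ligand, had a log2 ratio of 0.62 in wild type cells (34.8 CPM in T-positive and 22.3 CPM in T = 0 cells) and -0.88 in knockout cells (17.3 CPM and 32.7 CPM in the same order). Ahnak, a large scaffold protein gene, had 0.59 in wild type cells (42.0 CPM in T-positive and 27.6 CPM in T = 0 cells) and -0.71 in knockout cells (29.1 CPM and 48.1 CPM). Both wild type calls depended on 1 cell. Without the cell that held most of the gene's UMIs, the wild type log2 ratio was 0.55 for Wnt4 and 0.52 for Ahnak, under the fold. Ahnak was past the fold in wild type cells under 9 of 18 alternatives. The difference between the libraries was not tested.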

How the results depend on the processing

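Of 3139 alternative values of 175 results, 2716 stayed within the interval or 1.5 times of the value as reported, 421 moved and 2 reversed a gene that was past the fold. Both of those were H19, at -0.017 without the cell that held most of its UMIs and -0.32 in cells of low chromosome 8 share. Of the 142 log2 ratios reported, 53 had the opposite sign under at least 1 alternative, most of them close to 0 as reported. Lefty1, at -0.47, was at 0.45 in cells of low chromosome 8 share. The log2 ratios of Sp5 (0.87 to 1.70), Fgf8 (0.86 to 1.27) and Eomes (0.78 to 1.30) stayed past the fold under all 18 alternatives, and Mixl1 (0.52 to 2.08) under 17. The splits by chromosome 8 share, the removal of the H19-rich cell and the removal of cells with 5 or more T UMIs were chosen after seeing the data. The share of T-positive cells was 10.3% at 1 or more T UMIs, 0.704% at 3 or more and 0.841% after thinning, and 4.11% and 1.88% in cells of low and high chromosome 8 share. The count of higher genes (41) was 4 at 1 or more T UMIs, 390 at 3 or more (65 cells), 158 after thinning, 63 and 21 with a pseudocount of 0.1 and 5 CPM, 82 and 8 at 5 and 50 CPM or more, and 294 in cells of low chromosome 8 share (58 T-positive cells). The count of lower genes (6) was 3 at 1 or more T UMIs, 38 at 3 or more, 22 after thinning, 11 with each cell's CPM averaged, 11 with median-of-ratios size factors, 11 with a pseudocount of 0.1 CPM, 21 and 1 at 5 and 50 CPM or more, and 70 and 10 in cells of low and high chromosome 8 share. Fewer cells, UMIs or genes enter several of these settings by construction, and beyond that the cause was not tested. The number of genes tested also changes with several settings and is not given for them. These counts are therefore not shares and do not compare directly with 41 and 6 of 6186. No paired analysis was possible because each genotype is 1 library. A single library per genotype, shallow T counts and membership that moves with depth limit every comparison.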
